A study of Mus musculus with 1 sample.

Results

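The 8 genes described here encode the constant and surrogate chains of the antibody molecule in the mouse: Ighm and Ighd (the heavy chains of IgM and IgD), Igkc (the kappa light chain), Iglc1, Iglc2 and Iglc3 (the lambda light chains), Jchain (the joining chain) and Igll1 (the constant-like part of the surrogate light chain). They were taken by gene symbol from the 32285 genes of the deposited table, and all 8 were listed. The transcripts were counted in single cells of 1 library with the genotype Scap f/f, in which Scap carries loxP sites and, with no Cre, is intact. As many male as female mice, 5 to 6 in all and 2 weeks old, gave their pancreata to a pool that was digested with collagenase and cleared of dead cells. The Scap Δpanc library of the same study, in which Pdx1-Cre deletes Scap, was not analysed here. With 1 pooled library there is no replicate, cells are not replicates of a mouse, and no test between groups was possible. All intervals are 95% intervals for counting error only.

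An antibody is made of a pair of identical heavy chains and a pair of identical light chains. A B cell precursor first assembles a heavy chain, which is displayed with the surrogate light chain made of the Igll1 and Vpreb1 products. A kappa or lambda light chain then replaces the surrogate chain, and a B cell is generally held to display only 1 kind of light chain. A newly formed B cell carries IgM, and a mature naive B cell carries IgM and IgD from a shared transcript that is processed in alternative ways. A plasma cell secretes antibody, of which some classes, such as IgM, are joined into polymers by the product of Jchain.

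Reads are counted from the 3′ end of transcripts, so a constant gene gathers the reads of every rearranged chain that uses it. In the GRCm38 build with GENCODE M21 annotation, whose gene identifiers matched those of the table for 8 of 8 genes, Ighm (chr12:113418558-113422730) and Ighd (chr12:113406604-113416324) are neighbours on the minus strand of chromosome 12. Igkc (chr6:70726435-70726966) is a single exon on the plus strand of chromosome 6. The lambda genes Iglc1 (chr16:19061618-19062071), Iglc3 (chr16:19065230-19065681) and Iglc2 (chr16:19198396-19200351) and the surrogate gene Igll1 (chr16:16860671-16863985) are all on the minus strand of chromosome 16. Jchain lies elsewhere (chr5:88519809-88527891, minus strand).

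Iglc2 and Iglc3 are close copies of each other, which bears on the counts given for them. Over the coding part of the constant exon, Iglc2 and Iglc3 differ at 11 of 314 aligned bases (96.5% identity), Iglc1 is 74.8% identical to Iglc2, and Igll1 is closest to Iglc1 at 79.4%. No run of 90 bases was shared by any pair of these 4 genes, but shorter runs are, so that a read may be split between Iglc2 and Iglc3 with some error. To show how alike they are, 60 coding bases of the constant exon follow, 5′ to 3′ on the minus strand, chosen because no other stretch of that length that aligns without a gap in all 4 genes holds more differences between Iglc2 and Iglc3. Capitals mark bases that differ from Iglc2, of which there are 5 in Iglc3, 11 in Iglc1 and 20 in Igll1. The stretches lie at chr16:19198776-19198835, chr16:19065605-19065664, chr16:19061995-19062054 and chr16:16861058-16861117, in the order printed.
Iglc2: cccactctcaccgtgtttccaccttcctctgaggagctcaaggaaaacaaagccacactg
Iglc3: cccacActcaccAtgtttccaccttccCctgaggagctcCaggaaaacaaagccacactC
Iglc1: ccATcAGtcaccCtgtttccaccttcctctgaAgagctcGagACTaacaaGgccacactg
Igll1: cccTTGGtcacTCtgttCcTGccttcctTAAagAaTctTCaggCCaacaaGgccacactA

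Of 11789 barcodes, 10129 held more than 800 and fewer than 10000 unique molecular identifiers (UMIs) and under 15% mitochondrial UMIs, with a median of 2479 UMIs. B cells were defined as kept cells with at least 2 UMIs of Cd79a, Cd79b and Ms4a1 together, genes for the signalling partners of the B cell receptor and for CD20, which are no immunoglobulin chains. There were 528 B cells, 5.21% of the kept cells (4.79% to 5.66%), with a median of 1718.5 UMIs and a range of 806 to 9970. Of them, 450 lay in the cluster that carried the B cell markers, 29 in an unnamed cluster of 36 cells with B cell and digestive enzyme markers, and 49 elsewhere. Scrublet marked 53 B cells (10.0%) as likely doublets, against 4.35% of all kept cells, and 50 B cells also met the T cell rule (2 or more UMIs summed over Trac, Cd3d, Cd3e and Cd3g). At the edge of the rule, an Ighm or Igkc UMI was found in 94.5% of the 128 cells with 2 UMIs of the rule genes, in 47.9% of the 219 cells with 1 and in 7.49% of those with 0.

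Ighm and Igkc were found in nearly all B cells. Ighm had a UMI in 465 of 528 B cells (88.1%, 85.0% to 90.7%) and Igkc in 468 (88.6%, 85.6% to 91.2%), against 3.43% and 1.96% of the 5193 fibroblastic-like cells, which should lack both and which had a median of 2608 UMIs. The median B cell held 2 Ighm UMIs and 5 Igkc UMIs. A single cell, described further on, held 348 of the 2192 Ighm UMIs and 991 of the 4498 Igkc UMIs of all B cells, while no other B cell went above 28 and 31. It was therefore left out of the levels that follow, which are counts per 1000000 UMIs of the group (CPM). Only 5 of the 528 B cells held no UMI of any of the 8 genes.

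Ighm stood at 1479.7 CPM in the other 527 B cells (1413 to 1549) and at 12.5 in fibroblastic-like cells, a 118-fold difference (102 to 138). Igkc stood at 2814 (2722 to 2909) against 7.39, a 381-fold difference (317 to 461). The contrast with T cells was smaller for both, 16.2-fold for Ighm (14.2 to 18.5) and 128-fold for Igkc (99.4 to 168), or 195-fold (143 to 274) without the T cell of most Igkc UMIs. The 79 cells of the B cell-like cluster that fell below the rule held Ighm at 1331 (1142 to 1543) and Igkc at 2345 (2091 to 2621), near the levels of the B cells, at a median of 1161 UMIs.

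**Figure D1:**
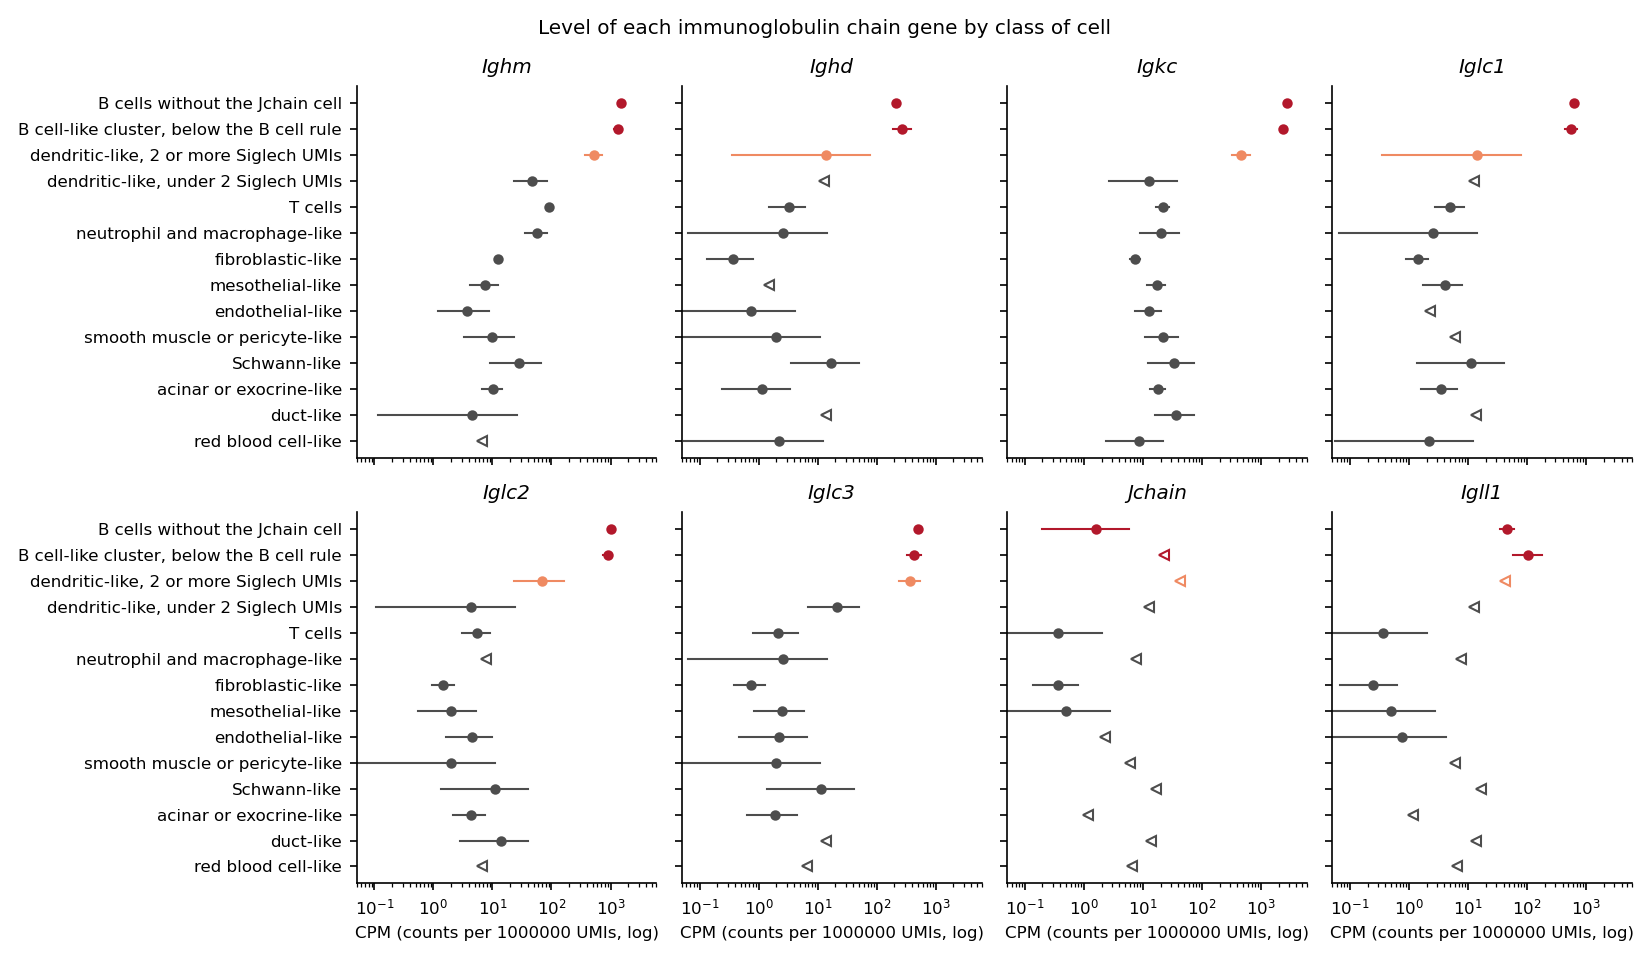
CPM (log axis) of each of the 8 genes in 14 classes of cells, with 95% Poisson intervals for counting error as lines. Open triangles stand at the level of 3 UMIs in classes where the gene had none. The highest measured level of each gene is in the B cells or the cells of the B cell-like cluster below the rule (red). For Jchain the interval of the B cells overlaps those of the other classes with a UMI. Ighm, Igkc, Iglc3 and, on 5 UMIs, Iglc2 are also raised in the dendritic-like cells with 2 or more Siglech UMIs (orange).

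Fewer B cells held an Ighd UMI than an Ighm UMI. The 265 Ighd UMIs fell in 180 B cells (34.1%, 30.1% to 38.3%), with at most 6 in a cell, against 0.116% of fibroblastic-like cells. With every cell thinned to 800 UMIs, the lower limit of the kept cells, 87 B cells (16.5%, 13.4% to 19.9%) had an Ighd UMI and 364 (68.9%, 64.8% to 72.9%) an Ighm UMI. The Ighd share was 10.3% among the 300 B cells kept at a lower limit of 1500 UMIs. Both genes were found together in 161 B cells, Ighm alone in 304, Ighd alone in 19 and neither in 44. The cells with Ighm alone include those in which an Ighd transcript was missed, and the depth does not allow the count of IgD-negative cells to be read from them.

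Only 32 B cells held more Ighd than Ighm UMIs. Without the Jchain cell, there were 14.4 Ighd UMIs per 100 Ighm UMIs (12.6 to 16.4), a ratio of the UMI counts of 2 genes and no measure of the proteins. The same ratio was 3.54 (1.60 to 6.83) in T cells and 2.96 (1.07 to 6.55) in fibroblastic-like cells, lower than in the B cells in both, with intervals that did not meet that of the B cells.

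**Figure D2:**
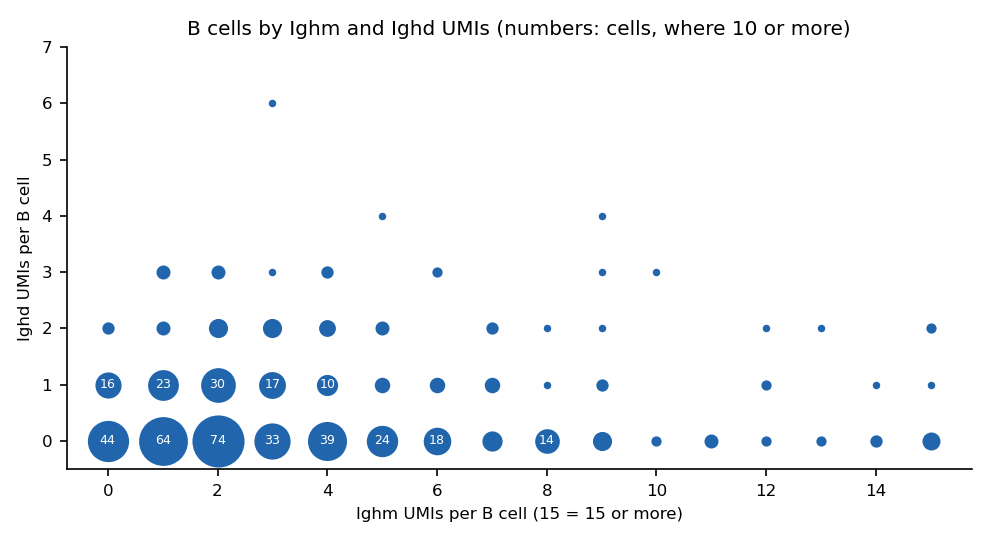
Number of Ighd UMIs against number of Ighm UMIs in 527 B cells (the Jchain cell left out). The area of each point grows with the number of cells, printed where it is 10 or more. Most cells lie on the bottom row with no Ighd UMI.

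Leaving out the Jchain cell and the cells with 3 or more Igll1 UMIs, B cells with and without an Ighd UMI after thinning were compared for lists of genes of immature, mature, B-1 and plasma cells. The groups were unequal in depth: the 86 cells with Ighd had a median of 1277.5 UMIs and 2.33% Scrublet marks, and the 431 cells without had 1874 and 11.8%. The folds used the full counts, in which 93 of the 431 cells held Ighd, with 126 UMIs. Ighd stood at 116 CPM (97.0 to 139) in that group and at 1075 (903 to 1270) in the 86. The folds thus set more Ighd against less, not against cells that lack it. The B cell genes of the rule were all higher with Ighd, Cd79a by 1.45-fold (1.24 to 1.70), Cd79b by 1.58-fold (1.28 to 1.93) and Ms4a1 by 1.42-fold (1.13 to 1.76). These genes had chosen the cells at a fixed minimum of 2 UMIs, which weighs more in the shallower group. Their folds are therefore no independent result. Also higher with Ighd were Ighm by 1.30-fold (1.13 to 1.49), Igkc by 1.73-fold (1.58 to 1.89), Iglc1 by 1.66-fold (1.37 to 2.01), Iglc2 by 1.94-fold (1.68 to 2.24) and Iglc3 by 1.35-fold (1.06 to 1.70). Among the mature B cell genes the intervals of Fcer2a (CD23, 1.54-fold, 0.962 to 2.37) and Ccr7 (a lymph node homing receptor, 1.45-fold, 0.964 to 2.12) included 1. So did those of Cr2 (1.09-fold, 0.419 to 2.41) and Cd55 (1.12-fold, 0.759 to 1.605). The immature B cell genes Cd93 (1.46-fold, 0.632 to 2.99), Cd24a (0.832-fold, 0.556 to 1.21), Spn (1.12-fold, 0.125 to 4.83) and Vpreb3 (1.035-fold, 0.733 to 1.43) also had intervals that included 1. Of the plasma cell list, Irf4 was higher with Ighd (1.63-fold, 1.07 to 2.41). The intervals of Xbp1, Prdm1, Sdc1, Mzb1, Derl3 and Fkbp11 included 1. The B-1 list was mixed: S100a6, a calcium-binding protein (0.337-fold, 0.244 to 0.456), and Anxa2 (0.418-fold, 0.165 to 0.885) were lower, while the intervals of Bhlhe41 (1.26-fold, 0.438 to 3.001), Zbtb32 (1.69-fold, 0.0356 to 15.1) and Cd5, the classical B-1 marker (0.527-fold, 0.0126 to 3.39), included 1. S100a6 and Anxa2 are no B cell genes alone, with a UMI in 81.7% and 51.0% of the other kept cells. The part of doublets in their differences, and in those of Irf4, the rule genes and immunoglobulin genes, was not tested.

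Other heavy chain classes were close to absent. In the 527 B cells Ighg1, Ighg2c and Ighe had 0 UMIs, which allows up to 2.41 CPM for each at 3 counts, Ighg2b had 3 UMIs in 3 cells, Ighg3 had 6 in 5 cells and Igha had 3 in 2 cells. Apart from Ighm and Ighd, no heavy chain constant gene of the list thus had more than 6 UMIs in these cells.

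UMIs of the lambda genes were found in most B cells. Iglc2 had a UMI in 70.1% of B cells, Iglc3 in 59.8% and Iglc1 in 53.6%, and 448 B cells (84.8%, 81.5% to 87.8%) held at least 1 of them. UMIs of all 3 lambda genes were found in 175 B cells (33.1%), of 2 in 171, of 1 in 102 and of none in 80. A median B cell held 4 lambda UMIs beside its 5 Igkc UMIs. Iglc1 stood at 633 CPM (589.7 to 679), Iglc2 at 1032 (976 to 1089.9) and Iglc3 at 499.9 (461 to 541).

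Kappa and lambda UMIs occurred together in 413 of 528 B cells (78.2%, 74.5% to 81.7%), Igkc alone in 55, lambda alone in 35 and neither in 25. The share with both was 61.6% (57.3% to 65.7%) with every cell thinned to 800 UMIs. It was 78.4% (74.2% to 82.2%) in the 430 B cells that neither Scrublet nor the T cell rule marked. Stray transcripts at the level of the fibroblastic-like cells would give the median B cell 0.0127 Igkc UMIs and 0.00624 lambda UMIs, and at the level of the T cells 0.0378 and 0.0217. The part of stray RNA in the cells with both chains was not tested.

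A B cell was assigned to kappa or lambda when it held at least 3 light chain constant UMIs and at least 80% of them came from that chain. Of the 485 B cells with 3 or more such UMIs, 110 were kappa cells (22.7%, 19.0% to 26.7%), 53 were lambda cells (10.9%, 8.29% to 14.0%) and 322 (66.4%, 62.0% to 70.6%) were neither. Kappa cells made up 67.5% (59.7% to 74.6%) of the 163 assigned cells and lambda cells 32.5% (25.4% to 40.3%). The share of kappa did not fall into 2 separate heaps: of the 10-point steps of the scale the fullest was 50% to 60% kappa, with 96 cells, and the ends held 34 cells below 10% and 57 cells at 90% or more. That fullest step includes all cells with exactly equal Igkc and lambda UMIs, which small counts often give, so its height depends in part on where the steps begin.

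The cells with both chains held a median of 6 Igkc and 5 lambda UMIs, the kappa cells 9 and 1, and the lambda cells 0 and 10. Of the 53 lambda cells 32 had no Igkc UMI, and of the 110 kappa cells 41 had no lambda UMI. Depth was alike in the 3 groups, with medians of 1734 UMIs in kappa cells, 1499 in lambda cells and 1713.5 in cells with both, and Scrublet marked 10.0%, 11.3% and 9.63% of them.

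**Figure D3:**
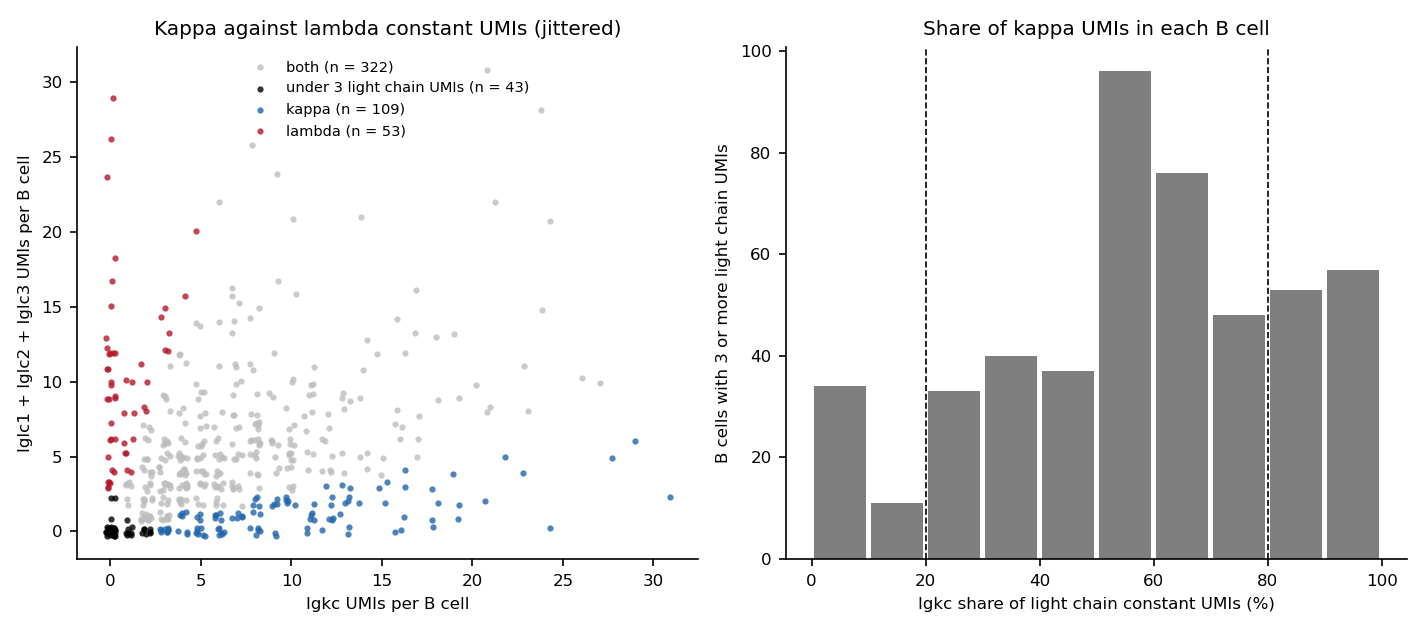
Left, lambda (Iglc1, Iglc2 and Iglc3) against Igkc UMIs in 527 B cells, jittered, coloured by the light chain assignment. Right, number of B cells with 3 or more light chain constant UMIs by the share of Igkc in them, with dashed lines at 20% and 80%. The 322 cells with both chains fill the middle of both plots.

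Transcripts of V segments, the rearranged variable parts, were a readout that the assignment did not use. Apart from the Jchain cell, an Igkv UMI was found in 24.8% of kappa cells (17.0% to 34.0%), 11.3% of lambda cells (4.27% to 23.0%) and 20.5% of cells with both (16.2% to 25.3%). An Iglv UMI was found in 0.917% of kappa cells (0.0232% to 5.01%), 9.43% of lambda cells (3.13% to 20.7%) and 5.59% of cells with both (3.35% to 8.69%). The order of the groups followed the assignment for both families, but the intervals of all groups overlapped, also those of kappa and lambda cells. The Iglv shares rest on 1 of 109 kappa cells and 5 of 53 lambda cells. Overlap of intervals is no comparison, and a difference between the groups in V segments was not tested. Reads from the 3′ end seldom reach the V part, which limits these shares.

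Of 160 listed Igkv genes, 34 had a UMI in the 527 B cells, and 94 of the 101 cells with an Igkv UMI showed 1 gene. These 101 cells held 122 Igkv UMIs, and a cell with a single UMI can show only 1 gene. The count therefore does not tell how many Igkv genes a cell used. Igkv2-109 was found in 21 cells, Igkv1-110 in 11, Igkv1-117 in 8, Igkv12-89 in 6 and Igkv19-93 in 5. Of the 3 listed Iglv genes, Iglv3 was found in 15 cells, Iglv1 in 10 and Iglv2 in 1. The 15 Iglv3 cells held Iglc1 at 1882 CPM (1437 to 2423), against 594 (551 to 639) in the 502 cells with no Iglv UMI. They also held Iglc3 at 973 (661 to 1381) and Iglc2 at 1380.5 (1003 to 1853), against 484 (445 to 525) and 993 (937 to 1051). The shares of cells with a UMI were alike. Iglc1 was found in 8 of the 15 Iglv3 cells and 268 of the 502 with no Iglv UMI. Iglc3 was found in 9 and 299 of them, and Iglc2 in 11 and 349. The higher levels thus lay in the number of UMIs in some of the cells. The 10 Iglv1 cells held Iglc2 at 2119 (1500 to 2909), Iglc3 at 1115 (681 to 1723) and Iglc1 at 725 (386 to 1240), against the same levels in cells with no Iglv UMI. All but 1 of the 15 Iglv3 cells and 7 of the 10 Iglv1 cells also held Igkc UMIs.

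Within the lambda family most cells mixed the genes. Of 239 B cells with 5 or more lambda UMIs, Iglc2 held at least 80% of them in 37, Iglc1 in 17 and Iglc3 in 2, and no gene did so in 183 (76.6%, 70.7% to 81.8%). Iglc4, listed as a further lambda constant gene, had 3 UMIs in B cells.

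Vpreb3, a gene of precursor and newly formed B cells, differed between the light chain groups. It stood at 567 CPM (480 to 666) in the 109 kappa cells without the Jchain cell, at 215 (138 to 319) in lambda cells and at 185 (156 to 219) in cells with both. The 43 B cells with under 3 light chain UMIs held it at 1038 (865 to 1235), but 9 of them were cells with 3 or more Igll1 UMIs, and the other 34 held it at 889 (710 to 1100). An Ighd UMI was found in 39.4% of cells with both chains, 30.0% of kappa cells, 32.1% of lambda cells and 6.98% of the cells with under 3 light chain UMIs.

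Igll1 was found in a small set of cells, most of them of the B lineage. At least 3 Igll1 UMIs were found in 13 kept cells, all of them in the B cell-like cluster, and 10 of them met the B cell rule. They held 3 to 9 Igll1 UMIs each. Another 3 cells held 2 Igll1 UMIs, all B cells, and 11 held 1 UMI, of which 4 were B cells and 4 fibroblastic-like. No kept cell reached 10.

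The 13 Igll1 cells held transcripts of the surrogate light chain and, in most cells, none of a light chain constant gene. Vpreb1, the partner of Igll1 in the surrogate chain, had a UMI in 11 of 13 (84.6%, 54.6% to 98.1%), against 47 of the other 10116 kept cells (0.465%). Igkc had no UMI in 11 of 13 and the remaining cells held 3 and 11, while 51 of 517 other B cells (9.86%) had none. No Igll1 cell held an Iglc1, Iglc2 or Iglc3 UMI, which at 0 of 13 cells allows a share of cells with a UMI of up to 23.1% (3 counts of the total), and 74.3% of the other B cells (70.3% to 78.0%) held 1 with every cell thinned to 800 UMIs. The Igll1 cells were the deeper group, with a median of 2975 UMIs against 1694 in the other B cells.

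Heavy chain transcripts were present in the Igll1 cells at a lower level. Ighm had a UMI in 10 of 13 and stood at 0.625-fold the level of the other B cells (0.449 to 0.848). Ighd had a single UMI, in 1 of the 13 cells (0.102-fold, 0.00258 to 0.575). Igkc stood at 0.108-fold (0.0591 to 0.182), lower than Ighm on the same scale. Ms4a1 had 0 UMIs in the Igll1 cells and 666 in the other B cells, most of which were chosen in part by that gene.

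Genes of precursor B cells accompanied Igll1, while the recombinase genes Rag1 and Rag2 had few UMIs. In the Igll1 cells over the other B cells, Vpreb1 was 38.1-fold higher (21.4 to 69.0) and Vpreb3 5.07-fold (3.88 to 6.53). Vpreb2 was 45.0-fold higher (8.76 to 290.1), on 5 UMIs in 4 Igll1 cells. Rag1, a subunit of the recombinase, was 9.01-fold higher (1.57 to 36.1), on 3 UMIs in 2 Igll1 cells. Rag2 had 2 UMIs in 2 Igll1 cells and 2 UMIs in 2 of the other B cells. Dntt, which adds bases at heavy chain joints, had 8 UMIs in the 13 Igll1 cells and 0 in the 517 others. Il7r, the receptor for a growth factor of precursor B cells, was 2.96-fold higher (1.14 to 6.45) and Cd24a 3.37-fold (2.39 to 4.63). Of the other immature B cell genes, Cd93 (1.33-fold, 0.267 to 4.07) and Spn (1.59-fold, 0.0380 to 10.1) had intervals that included 1. Mzb1, of the plasma cell list, was also 2.82-fold higher (1.88 to 4.09). The intervals of Xbp1, Prdm1, Irf4, Sdc1, Derl3 and Fkbp11 of that list included 1. Mki67, a marker of dividing cells, had a UMI in 7 of 13 (53.8%, 25.1% to 80.8%) against 5.42% of the other B cells. These Mki67 shares were not thinned, and the Igll1 cells were the deeper group.

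Some genes of mature B cells were lower in the same 13 cells. Fcer2a had 0 UMIs against 162 in the other B cells, Ccr7 stood at 0.124-fold (0.00312 to 0.698) and Cd55 at 0.280-fold (0.0573 to 0.825). Cr2 had 0 UMIs against 61, but the interval of its ratio (0 to 1.68) included 1.

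**Figure D4:**
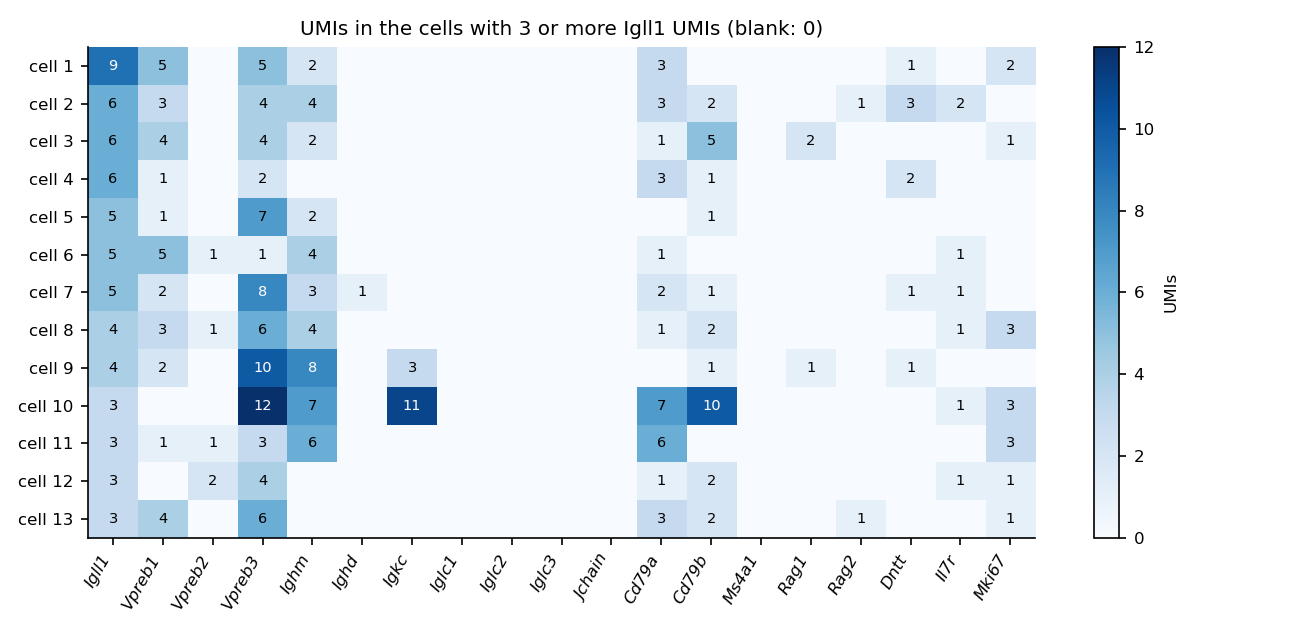
UMIs of the immunoglobulin chain genes and of B cell precursor genes in each of the 13 cells with 3 or more Igll1 UMIs, ordered by Igll1. The columns of Iglc1, Iglc2, Iglc3 and Jchain are empty, and Igkc is filled in 2 cells.

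Jchain rested on 1 cell. That cell held 194 of the 196 Jchain UMIs of the B cells, the remaining 2 lay in 1 other B cell, and 8 further kept cells, 6 of them fibroblastic-like, held 1 each. Without it the B cells stood at 1.60 CPM (0.194 to 5.80), and the interval of their ratio to fibroblastic-like cells (4.34-fold, 0.429 to 24.3) included 1.

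The Jchain cell held IgM transcripts together with several genes of plasma cells. It held 7529 UMIs, of which the 8 genes took 21.1%: 991 Igkc, 348 Ighm, 194 Jchain, 28 Iglc1, 25 Iglc2, 3 Iglc3 and no Ighd or Igll1. Mzb1, a chaperone of antibody assembly, had 37 UMIs, Xbp1, a regulator of secretory cells, had 8, and Tnfrsf17, the receptor BCMA, had 5 where the other 527 B cells had 0. Irf4 had 4 UMIs, Derl3 and Fkbp11 had 2 each, and Sdc1, Prdm1 and Igha had none. A single gene of each V family was found: Igkv5-39 with 27 UMIs, Iglv1 with 27 and Ighv2-9 with 11. Both a kappa and a lambda V segment were thus read in the same barcode, which Scrublet did not mark as a doublet.

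Outside the B cells, the 8 genes were not at 1 common stray level. Among fibroblastic-like cells, the largest class, Ighm stood at 12.5 CPM (10.8 to 14.3), Igkc at 7.39 (6.13 to 8.84) and Ighd at 0.369 (0.136 to 0.804). Ighm in T cells stood at 91.6 (80.6 to 103.5), 7.32-fold above fibroblastic-like cells (6.07 to 8.85), while Igkc in T cells stood at 22.0, 2.98-fold above (2.15 to 4.08). Few T cells held Igkc: apart from 1 cell, its 40 UMIs lay in 20 of 1073 T cells (1.86%), with at most 9 each. That single T cell held 21 of the 61 Igkc UMIs, and without it Igkc stood at 14.4 (10.3 to 19.6), 1.95-fold above (1.33 to 2.81). The ratio of Ighm to Igkc UMIs also differed between classes, and was 416 per 100 in T cells (314 to 560.1), or 632.5 (452 to 907) without that cell, 169 in fibroblastic-like cells (134 to 214) and 52.6 in the B cells (49.7 to 55.6). Why the classes differ was not tested.

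Ighm UMIs in T cells were spread thinly: 18.5% of the 1074 T cells held 1 or more, and none held more than 4. T cells with a Cd8a UMI and no Cd4 stood at 129 (103 to 159.6) and those with Cd4 and no Cd8a at 86.1 (60.6 to 118.6), a ratio of 1.496 (1.004 to 2.27). Igkc in these subsets stood at 7.76 (2.52 to 18.1) and 9.30 (2.54 to 23.8), with intervals that held the fibroblastic-like level. The neutrophil and macrophage-like cluster held Ighm at 4.49-fold (2.76 to 6.99) the level of the fibroblastic-like cells. Between fibroblastic-like clusters Ighm also varied, with cluster 2 at 1.74-fold (1.27 to 2.40) the level of cluster 0 and 2.86-fold (1.91 to 4.39) that of cluster 1. Igkc by contrast was higher in acinar or exocrine-like cells, at 17.8 (13.02 to 23.7), and mesothelial-like cells, at 17.2 (11.9 to 24.0), than in fibroblastic-like cells.

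Dendritic-like cells with Siglech, a receptor of plasmacytoid dendritic cells, held Ighm, Igkc, Iglc3 and, on 5 UMIs, Iglc2 well above the stray level. Siglech was chosen for this after the values of the cluster had been seen. In the 21 dendritic-like cells with 2 or more Siglech UMIs, Ighm had 37 UMIs in 12 cells, Igkc 33 in 11 cells and Iglc3 26 in 10 cells, with at most 8, 5 and 6 in a cell. These levels were 41.7-fold (28.5 to 59.4), 62.9-fold (41.4 to 93.1) and 495-fold (241 to 1077) those of the fibroblastic-like cells. Cd79a and Ms4a1 had 0 UMIs in these 21 cells, which allows a share of cells with a UMI of up to 14.3% (3 counts of the total), Cd79b had 2, and the cells' median was 2661 UMIs.

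The lambda genes did not follow the B cell ratio there. Iglc3 stood at 520.0 UMIs per 100 Iglc2 UMIs (196 to 1734) in the Siglech cells and at 48.4 (44.0 to 53.4) in the B cells, 50 (22.8 to 104) in fibroblastic-like cells and 40 (12.7 to 109) in T cells. Iglc1 had 1 UMI and Iglc2 had 5 in the Siglech cells. For Iglc2 this was 70.4 CPM (22.8 to 164), against 1.48 (0.947 to 2.20) in fibroblastic-like cells. The other 81 dendritic-like cells held 11 Ighm, 3 Igkc and 5 Iglc3 UMIs.

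The genes most alike to each member over the 21 clusters, by Pearson's r of log2 levels, were as follows, given as descriptions over clusters of 1 library that share its depth and stray RNA. Igkc ran with Fcmr, a receptor for IgM (0.93), and Ighd with Cd79b (0.91) after an unnamed gene model, Gm31243 (0.93). Igll1 ran with Vpreb1 (0.90), and Ighm, which was also raised in the cluster holding the Siglech cells, with Tmem163 (0.93). Jchain, with its few cells, reached at most 0.84.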

How the data were processed

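The authors pooled and dissociated the pancreata, built a 3′ droplet library (10x v3.1 chemistry) and, per the submitters' processing notes, aligned it with Cell Ranger 7.1.0 to build mm10. They deposited unnormalized UMI counts, 51540177 UMIs over 11789 barcodes. The lowest barcode held 500 UMIs, so the study's limits had not been applied. Ambient RNA was not removed here.

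Clusters came from Seurat 5.3.0 in R 4.3.3 (30 components, resolution 0.5) without immunoglobulin genes among the variable genes. A name needed 3 markers at 2-fold the median cluster, a rule set after the clusters were seen. Scrublet in scanpy 1.11.5 marked doublets, which were kept. Sums were computed with scipy 1.17.1 and given exact Poisson, Clopper-Pearson or conditional binomial 95% intervals, which were tested on simulated data. Alignments used Biopython 1.88. UMIs in distinct cells were summed with no test, for want of a second library. Named genes were the 8 members and fixed lists of related chain, precursor, mature, B-1 and plasma cell genes, plus the 3 genes most alike to 5 of the members. The members and lists were chosen with earlier results of these data known. A gene of the mature list is not reported here.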

Additional observations from a re-analysis of the deposited data

Results flagged for a closer look

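Barcodes outside the UMI limits carried immunoglobulin transcripts that the comparisons above did not use. The 832 barcodes with 10000 or more UMIs and under 15% mitochondrial UMIs held 418 Ighm UMIs, and 7 of these barcodes held 10 or more Ighm UMIs. Of these 832, 29 (3.49%, 2.35% to 4.97%) met the B cell rule. A further barcode with Jchain was among them: it held 15141 UMIs, with 6 Jchain, 53 Ighm, 181 Igkc, 9 Iglc1, 12 Iglc2, 8 Iglc3 and no Ighd or Igll1 UMIs.

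At the other end, 158 of the 717 barcodes with 800 or fewer UMIs met the B cell rule, 22.0% (19.1% to 25.3%), against 5.21% of the kept cells. They and the other barcodes of that depth held 717 Igkc, 321 Ighm, 69 Ighd, 265 Iglc2, 180 Iglc1 and 166 Iglc3 UMIs. No Jchain UMI was found there, and 3 barcodes held 3 or more of the 22 Igll1 UMIs.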

How the results depend on the processing

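Of 72 recomputed values, 14 moved, beyond counting error for shares and levels or by over 1.5 times for numbers of cells. A B cell rule of 1 UMI gave 747 B cells and a rule of 3 UMIs gave 400. A lower limit of 1500 UMIs left 300 B cells in place of 528, with 9.79 Ighd per 100 Ighm UMIs (12.1 with the usual limit, both with the Jchain cell) and 10.3% of thinned B cells with an Ighd UMI. Requiring at least 95% of the light chain UMIs from 1 chain gave 56.8% kappa and 43.2% lambda. Ighd per 100 Ighm UMIs was 14.4 without the Jchain cell, a choice made after seeing the data, as was leaving out the T cell of most Igkc UMIs, and 18.0 with each cell weighted equally; unthinned, 34.1% of B cells held an Ighd UMI. Ighm in T cells was 73.1 CPM with barcodes of up to 100000 UMIs and 79.1 after the stray level was subtracted. The upper limit of 100000 UMIs gave 2 Jchain cells, and a minimum of 1 UMI gave 10. Igll1 cells numbered 27 at 1 UMI or more and 0 at 10 or more. No paired analysis was possible because there is 1 library. Depth limits the counts of cells with Ighd, and a single pool of mice gives no spread between animals.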
